A study of Mus musculus with 9 samples.

Results

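The MYC, MAX and MXD network is a set of transcription factors that meet the same DNA sites through a shared partner. Its members were taken by symbol from the deposited table of length-scaled transcript levels, TPM: Myc, Mycn, Max, Mxd1, Mxd3, Mxd4, Mxi1, Mnt, Mlx and Mga, which are 10 of the 24411 genes listed. Of these, 9 reached the level needed for testing (at least 1 TPM in at least 3 libraries), as did 11753 genes in all. Mycn did not.

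The network was measured in macrophages that kept growing in culture after they had been taken from 3 sources of C57BL/6 mice, with 3 lines and 1 bulk RNA-seq library per line for each source. YS lines came from yolk sac at embryonic day 9.5, FL lines from the fetal liver of older embryos and BM lines from the bone marrow of adults. All 9 lines were grown in RPMI1640 with fetal calf serum and 100 ng/mL recombinant human M-CSF, and none carried a genetic modification. The starting cells were pooled from 2 or more mice, and a line was the bulk culture of 1 dish or well that had grown out, so the lines of a source may share mice, and the p-values measure the spread between cultures. The age of the donors, the source organ and the selection in culture cannot be told apart between the groups.

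MYC and its relative MYCN bind DNA only as heterodimers with MAX, and these dimers recruit acetyltransferases to E-box sites and activate genes of ribosome assembly, nucleotide synthesis and growth. MXD1, MXD3, MXD4, MXI1 and MNT compete for MAX and for the same sites and recruit SIN3 and histone deacetylases instead, while MGA pairs with MAX inside a Polycomb complex, PRC1.6. MLX is a second hub, which pairs with MXD1, MXD4, MNT and the glucose-sensing Mondo proteins. In macrophages, M-CSF induces Myc, and c-MAF is known to hold back a self-renewal programme that includes Myc and Klf4.

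The E-box CACGTG reads the same on both strands, and it was searched in RefSeq promoter windows of GRCm38.p6 that run from 250 bases before to 50 bases after a start site. The deposited table names no genome build, so these windows describe the genes and not the measurements. A window was at hand for 9 members, Mycn included. Myc had none. The E-box was in the windows of 4 of these 9 genes (44.4%), namely Max, Mxd4, Mnt and Mlx, against 2187 of all 27025 genes with a window (8.09%). Among tested genes it was in 4 of the 8 members with a window and in 1080 of 8929 genes (12.1%). The windows of the 4 members that passed the test between YS and BM lines are printed because 3 of them were higher together and 1 was lower. They are Max at chr12:76962199-76962498 (minus strand), Mxd1 at chr6:86669110-86669409 (minus strand), Mga at chr2:119896978-119897277 (plus strand) and Mxd3 at chr13:55329682-55329981 (minus strand), each written 5′ to 3′ on the strand of the gene, with the E-box in capitals.
Max: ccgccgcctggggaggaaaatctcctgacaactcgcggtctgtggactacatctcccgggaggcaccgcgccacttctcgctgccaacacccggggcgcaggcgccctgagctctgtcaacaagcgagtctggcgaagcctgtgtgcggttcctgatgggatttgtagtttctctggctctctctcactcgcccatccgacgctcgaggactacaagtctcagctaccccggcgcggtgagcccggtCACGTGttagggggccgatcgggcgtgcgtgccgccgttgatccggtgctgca
Mxd1: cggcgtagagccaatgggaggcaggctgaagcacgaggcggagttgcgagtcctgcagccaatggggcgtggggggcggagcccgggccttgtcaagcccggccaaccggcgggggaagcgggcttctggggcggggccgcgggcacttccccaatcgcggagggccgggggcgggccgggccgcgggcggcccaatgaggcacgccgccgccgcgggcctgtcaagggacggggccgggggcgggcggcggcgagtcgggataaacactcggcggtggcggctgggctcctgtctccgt
Mga: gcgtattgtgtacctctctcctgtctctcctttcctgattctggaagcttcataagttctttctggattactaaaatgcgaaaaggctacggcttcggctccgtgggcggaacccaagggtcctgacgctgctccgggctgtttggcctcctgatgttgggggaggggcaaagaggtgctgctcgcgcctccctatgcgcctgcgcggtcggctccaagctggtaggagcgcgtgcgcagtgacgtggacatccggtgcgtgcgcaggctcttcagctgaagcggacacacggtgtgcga
Mxd3: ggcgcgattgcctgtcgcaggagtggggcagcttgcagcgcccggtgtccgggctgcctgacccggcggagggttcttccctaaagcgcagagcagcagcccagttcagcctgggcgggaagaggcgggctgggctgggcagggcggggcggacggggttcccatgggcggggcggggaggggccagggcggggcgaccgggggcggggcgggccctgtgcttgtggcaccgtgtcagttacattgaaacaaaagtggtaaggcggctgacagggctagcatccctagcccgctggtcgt
Of these 4, only Max holds the E-box, and it spans the start site, with its first base at position -3. The other 3 windows do not contain these letters. The E-boxes of the remaining 3 genes are shown with 12 bases on each side, because none of these genes passed the test in any comparison below. They lie at chr5:34187912-34187941 (minus strand) for Mxd4, chr11:74830789-74830818 (plus strand) for Mnt and chr11:101087238-101087267 (plus strand) for Mlx, again with the E-box in capitals.
Mxd4: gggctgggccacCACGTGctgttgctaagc
Mnt: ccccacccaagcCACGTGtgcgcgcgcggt
Mlx: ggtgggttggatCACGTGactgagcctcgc
Their first bases lie at positions -219, -123 and -40. A window with the E-box was therefore found for 1 of the 4 members that passed and for 3 of the 4 tested members with a window that did not.

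The libraries carried the macrophage label in their RNA, and 2 of them stood apart. All 8 macrophage markers were at 1 TPM or more in every library, with Csf1r, the M-CSF receptor, at 1086 to 2441 TPM, but their levels moved with the groups. Their sum was 4215 TPM in YS line 1, 7952 and 9309 TPM in YS lines 3 and 2, 11786 to 28521 TPM in FL lines and 11717 to 13300 TPM in BM lines. Lyz2 was the largest part of this sum in every library. It was at 1163 to 3531 TPM in YS lines, 5806 to 21976 TPM in FL lines and 5986 to 7841 TPM in BM lines. Taken singly, 3 of the 8 had a higher and 5 a lower mean log2 level in YS than in BM lines. Of the 8, Fcgr1 was called higher in YS and FL lines (110 to 330 TPM) than in BM lines (1.68 to 42.1 TPM), Mertk was called higher in FL lines than in both other groups, and Lyz2 was called lower in YS lines than in both other groups. Lyz2 no longer passed between YS and BM lines without YS line 1 or without BM line 2. Of 21 markers of other cells, the sum was 8.82 to 96.8 TPM in 8 libraries, and Elane and Cd3e were listed at 0 in all 9. Of these, 5 were tested and 3 passed in some comparison. Kdr, an endothelial receptor, was at 16.1 to 54.4 TPM in YS lines 2 and 3 and in FL lines, and below 1 TPM in YS line 1 and in BM lines, and Cdh5, another endothelial gene, did not exceed 1.38 TPM. Pecam1, also endothelial but not tested, reached 4.91 TPM in YS line 1 and 8.17 TPM in YS line 2 and was below 1 TPM elsewhere. S100a8, a neutrophil and monocyte gene, was at 10.5 to 25.1 TPM in FL lines, at 3.43 to 5 TPM in BM lines and at 0 to 2.19 TPM in YS lines. Afp, a hepatocyte and endoderm marker, was tested and did not pass (smallest limma adjusted p over the comparisons 0.159). It was at 8.84 to 20.45 TPM in FL lines, at 2.95 to 12.21 TPM in BM lines and at 1.03 to 6.44 TPM in YS lines. BM line 2 reached a sum of 229.6 TPM, most of it Hba-a1 (215 TPM), an erythroid gene. In the other 8 libraries Hba-a1 did not exceed 8.62 TPM (YS line 1). Genes that were below 0.5 TPM in BM lines 1 and 3 but at 20 TPM or more in a given YS or FL line (38 to 83 genes for each line) had in BM line 2 a median of 14.1% of their level in YS line 2, and of 3.24% to 8.38% of their level in each of the other 5 YS and FL lines. YS line 1 was the YS library least like the others (Pearson r of log2 levels across genes 0.912 to 0.942, against 0.960 between YS lines 2 and 3), and it was the highest of the 9 libraries for 27.3% of all genes tested. The part of these markers and libraries in the results was not tested beyond leaving each of them out.

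Max, the shared partner, was higher in YS and in FL lines than in BM lines. It was at 139.7, 119.7 and 189.8 TPM across YS lines 1 to 3, at 128, 94.2 and 137 TPM across FL lines 1 to 3, and at 71.1, 74.4 and 65.25 TPM across BM lines 1 to 3. Every YS line and every FL line lay above every BM line, and YS and FL lines overlapped. The group means were 149.7 ± 36.1 (YS), 119.8 ± 22.6 (FL) and 70.2 ± 4.63 TPM (BM; SD, n = 3). On the log2(TPM + 1) scale, which is used for all differences below, YS lines exceeded BM lines by 1.06 (standard error, SE, 0.193, limma adjusted p = 0.00683), and FL lines exceeded BM lines by 0.75 (SE 0.193, limma adjusted p = 0.0283). The latter ended without BM line 3 (0.69, limma adjusted p = 0.105). YS and FL lines differed by 0.31 (SE 0.193, limma adjusted p = 0.339). By an exact two-sided permutation test, whose smallest p with 3 lines against 3 is 0.1, both comparisons with BM lines gave p = 0.1.

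Myc, the activator of the network, had its widest spread among YS lines and did not pass the test. Its level was 183, 95.9 and 51.8 TPM across YS lines 1 to 3, 82.4, 49.95 and 61.5 TPM across FL lines 1 to 3, and 57.5, 60.6 and 70.4 TPM across BM lines 1 to 3. YS line 1 was the highest of all libraries, YS line 3 lay below every BM line, and all 3 groups overlapped. YS lines stood 0.62 above BM lines (SE 0.393, limma adjusted p = 0.262) and 0.61 above FL lines (limma adjusted p = 0.357), and FL lines stood 0.02 above BM lines (limma adjusted p = 0.985). A single YS line moved these values. Without YS line 3, Myc passed both thresholds against BM lines (1.07, limma adjusted p = 0.0345) and against FL lines (1.05, limma adjusted p = 0.0754), and without YS line 1 the difference from BM lines was 0.17 (limma adjusted p = 0.686). Mycn, the neuronal relative of Myc, was listed at 0.11 TPM in YS line 1 and at 0.18 TPM in FL line 3, and at 0 in the other 7 libraries.

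**Figure D1:**
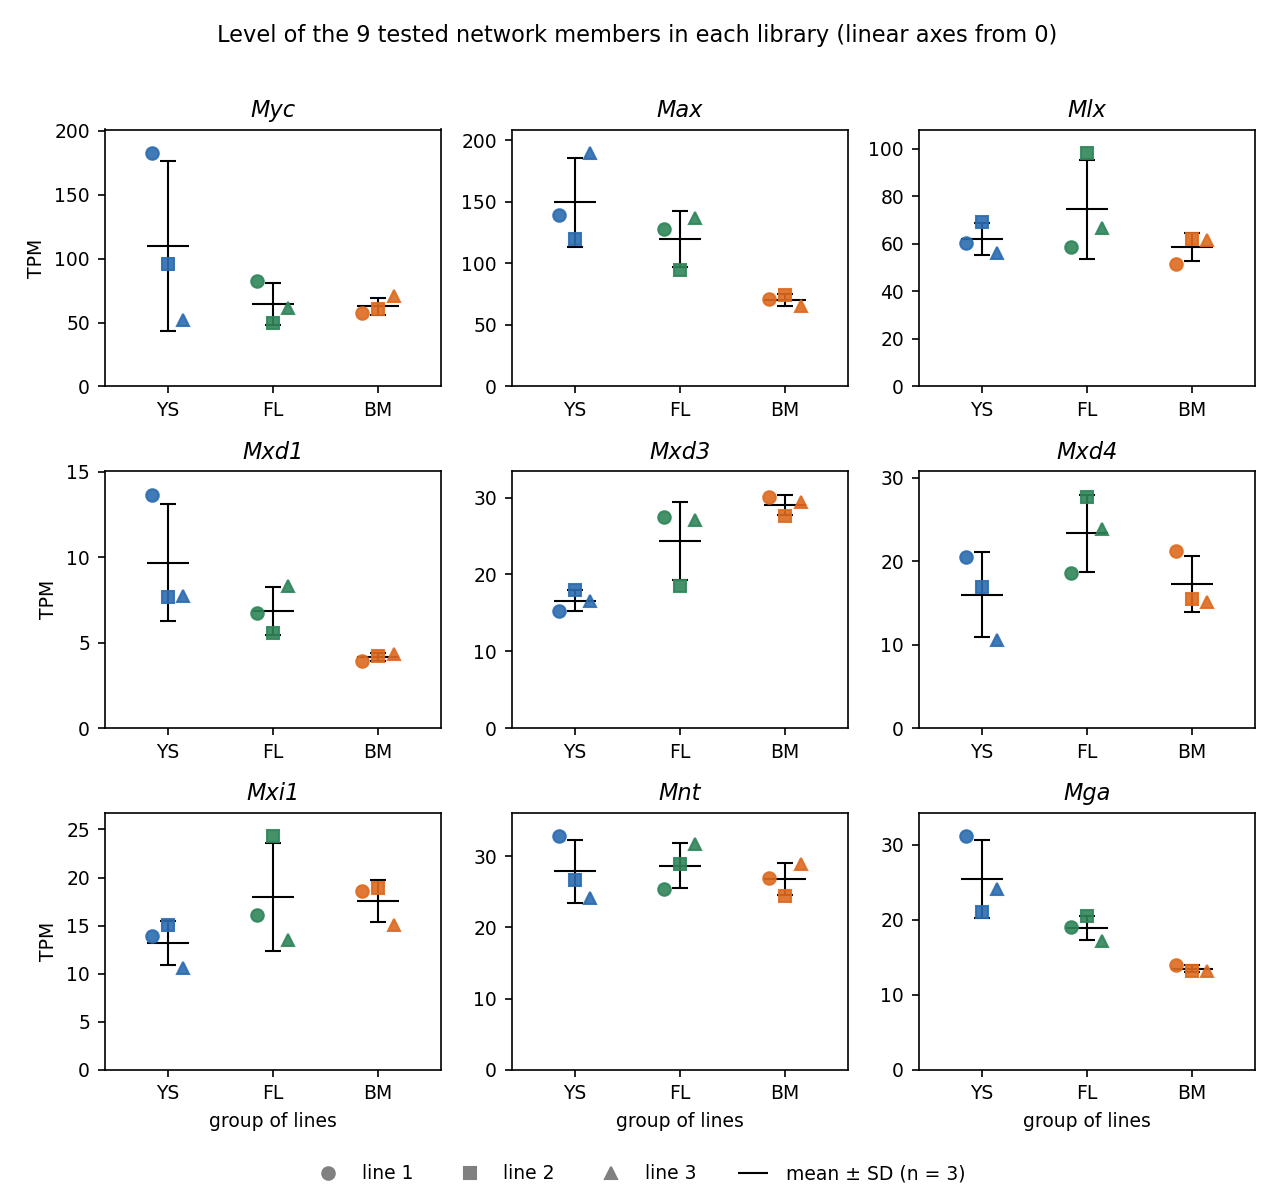
Level in TPM (linear axes from 0) of the 9 tested members in each library, by group of lines. Symbols stand for lines 1 to 3 and black bars for the mean ± SD over the 3 lines of a group. Max, Mxd1 and Mga are lowest and Mxd3 is highest in the 3 BM lines, whereas Myc runs from 51.8 to 183 TPM among YS lines alone.

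Among the antagonists, Mxd1 and Mxd3 changed in opposite directions. Mxd1, which rises in many cells as they leave the cycle and differentiate, was at 13.7, 7.67 and 7.73 TPM across YS lines 1 to 3, at 6.72, 5.56 and 8.33 TPM across FL lines 1 to 3, and at 3.91, 4.22 and 4.34 TPM across BM lines 1 to 3. It was the least abundant tested member, yet no BM line reached any YS or FL line. YS lines exceeded BM lines by 1.01 (SE 0.235, limma adjusted p = 0.0163). FL lines were 0.60 above BM lines (SE 0.235, limma adjusted p = 0.113), and YS lines were 0.41 above FL lines (limma adjusted p = 0.303), neither of which passed. YS line 1 was high for Mxd1, and without it the difference between YS and BM lines was 0.76 (limma adjusted p = 0.0199), under 2-fold. Without BM line 1 it was 0.97 (limma adjusted p = 0.063).

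Mxd3, the MXD protein that is known to be made by cycling cells, was the only member lower in YS lines that passed the test. Its level was 15.3, 17.98 and 16.5 TPM across YS lines 1 to 3, 27.4, 18.4 and 27.1 TPM across FL lines 1 to 3, and 30.1, 27.6 and 29.5 TPM across BM lines 1 to 3. The 3 groups did not overlap: all YS lines lay below all FL lines and all FL lines below all BM lines, although FL line 2 was near YS line 2 and FL line 1 near BM line 2. YS lines fell by 0.78 against BM lines (SE 0.162, limma adjusted p = 0.0109). The difference between FL and BM lines was -0.27 (limma adjusted p = 0.287). That between YS and FL lines was -0.51 and missed the threshold by little (limma adjusted p = 0.1001). It passed without FL line 2 (-0.69, limma adjusted p = 0.0606), and also with quantile normalization and with median-of-ratios scaling.

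The ratio of Mxd3 to Mxd1, taken within each library, kept the 3 groups apart. Mxd3 was at 1.12, 2.34 and 2.13 times the TPM of Mxd1 across YS lines 1 to 3, at 4.08, 3.31 and 3.26 times across FL lines 1 to 3, and at 7.71, 6.55 and 6.79 times across BM lines 1 to 3. The means were 1.87 ± 0.656, 3.55 ± 0.460 and 7.02 ± 0.612 (SD, n = 3 per group). As the ratio was formed after the levels of both genes were known, it is given without a test. Every BM line had more Mxd3 and less Mxd1 than every other library, so the ratio had to set BM lines apart. Between YS and FL lines, Mxd3 alone did not overlap, whereas Mxd1 did. It does not depend on a scaling factor between libraries.

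The other antagonists did not differ detectably. Mxd4 was at 20.55, 16.9 and 10.6 TPM across YS lines 1 to 3, at 18.55, 27.75 and 23.85 TPM across FL lines 1 to 3, and at 21.2, 15.5 and 15.1 TPM across BM lines 1 to 3. Mxi1 (also called Mxd2) was at 13.9, 15.1 and 10.6 TPM across YS lines 1 to 3, at 16.1, 24.3 and 13.5 TPM across FL lines 1 to 3, and at 18.6, 18.9 and 15.1 TPM across BM lines 1 to 3. Mnt, the most widely expressed antagonist of MYC, was at 32.8, 26.7 and 24.2 TPM across YS lines 1 to 3, at 25.4, 28.9 and 31.7 TPM across FL lines 1 to 3, and at 26.97, 24.4 and 28.9 TPM across BM lines 1 to 3. All 3 genes overlapped between every pair of groups. Mnt varied least of the tested members, its highest library standing 1.36 times above its lowest, against 3.66 for Myc and 3.50 for Mxd1. The differences of Mnt were 0.05 (YS minus BM), 0.09 (FL minus BM) and -0.04 (YS minus FL), each with a standard error of 0.145. Those of Mxd4 were -0.13, 0.41 and -0.55 in the same order (SE 0.254), and those of Mxi1 were -0.39, 0.00 and -0.39 (SE 0.225). Their limma adjusted p lay between 0.216 and 0.996.

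Mga, the scaffold of PRC1.6, had the smallest adjusted p of the network. It was at 31.1, 21.01 and 24.2 TPM across YS lines 1 to 3, at 19.04, 20.5 and 17.2 TPM across FL lines 1 to 3, and at 14.02, 13.2 and 13.2 TPM across BM lines 1 to 3. The groups were ordered YS, FL, BM with no overlap, although the lowest YS line and the highest FL line were close. YS lines were 0.85 above BM lines (SE 0.154, limma adjusted p = 0.00663), a rise of under 2-fold. FL lines were 0.46 above BM lines (SE 0.154, limma adjusted p = 0.0707), and this passed the threshold by little: it ended without any 1 of FL lines 1 and 2 or BM lines 1, 2 and 3 (limma adjusted p 0.149 to 0.190) and under both other scalings (0.37, limma adjusted p = 0.1004 and 0.102). YS lines were 0.39 above FL lines (limma adjusted p = 0.158), and it passed only without YS line 2 (0.52, limma adjusted p = 0.0854).

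Mlx, the second hub, was at 60.4, 69.3 and 56.05 TPM across YS lines 1 to 3, at 58.5, 98.2 and 66.4 TPM across FL lines 1 to 3, and at 51.6, 62.2 and 61.5 TPM across BM lines 1 to 3. FL line 2 was high and all groups overlapped. The differences were 0.08, 0.31 and -0.23 for YS minus BM, FL minus BM and YS minus FL (SE 0.190, limma adjusted p 0.289 to 0.773). The extended network holds 3 further genes that are not members. Mlxip, which encodes the Mondo partner MondoA, was at 21.8 to 33.3 TPM and passed in no comparison (YS minus BM 0.28, limma adjusted p = 0.145). Its YS and BM lines did not overlap, as was so for 49% of all genes tested. Mlxipl, which encodes the glucose-responsive ChREBP, was at 8.81 TPM in YS line 1, 0.54 TPM in YS line 2, 0.1 TPM in YS line 3, 0.04 TPM in FL line 2 and at 0 in the other 5 libraries. Mycl did not exceed 0.23 TPM.

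Counted over the network, 2 of the 9 tested members were called between YS and BM lines (limma, more than 2-fold at a false discovery rate of 0.1): Max and Mxd1, both higher in YS lines. Of all 11753 genes tested, 12.8% were called. With the false discovery rate alone, 4 of 9 passed, against 37.9% of all genes: Max, Mxd1 and Mga were higher and Mxd3 was lower. These 4 were also the members whose YS and BM lines did not overlap, against 49% of all genes. The share of the network that differed was thus near that of all genes, and nothing about the network as a set is read from it. The median difference of the 9 members was 0.08 against 0.11 for all genes.

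Between FL and BM lines, limma called 0 of 9 members, against 10.3% of all genes. An unadjusted limma p under 0.05 was reached by 3 of the 9, against 3952 of all 11753 genes. Max and Mga passed the false discovery rate alone (2 of 9, against 27.6% of all genes). The lines of Max, Mxd1, Mxd3 and Mga did not overlap (4 of 9, against 49.5%). Between YS and FL lines, limma called 0 of 9, against 3.79% of all genes. With no fold threshold the count was also 0, against 12.8%. With quantile normalization or median-of-ratios scaling it was 1 (Mxd3, lower). Of all genes, 737 were then higher and 879 lower, or 789 and 821. An unadjusted limma p under 0.05 was reached in the main fit by 2 members, Mxd3 and Mga, against 3016 of all 11753 genes. Those same 2 did not overlap (2 of 9, against 26.1%). Because the 3 comparisons share groups of lines, they are not independent of each other.

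**Figure D2:**
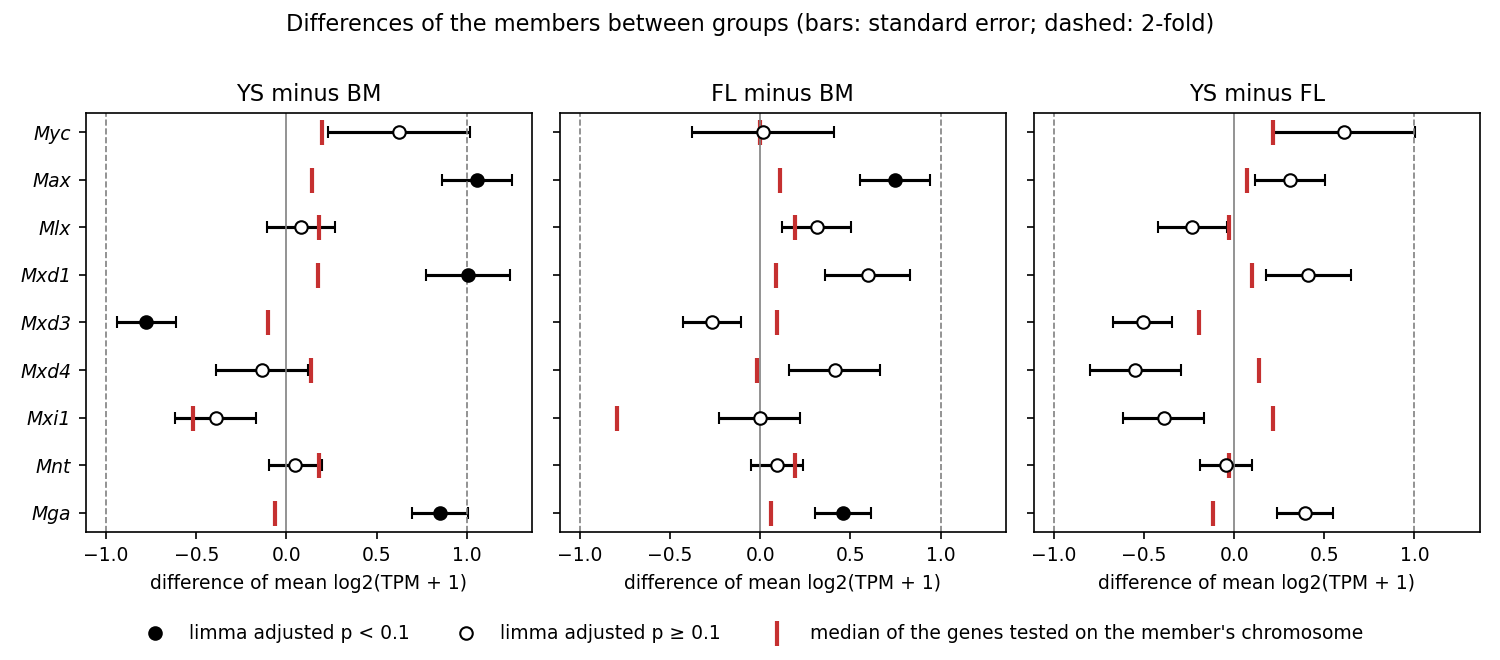
Difference of mean log2(TPM + 1) of the 9 tested members for YS minus BM, FL minus BM and YS minus FL lines, with standard errors as bars and 2-fold as dashed lines. Filled circles passed a limma adjusted p of 0.1, and red ticks show the median of the genes tested on the member's chromosome. Max, Mxd1 and Mga lie to the right and Mxd3 to the left between YS and BM lines, and no member is filled between YS and FL lines.

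The scale between libraries bears on the 2-fold calls. The median difference of all genes between YS and BM lines was 0.11, and quantile normalization or median-of-ratios scaling took it to -0.01 or 0.00. With these scalings, the genes that passed between YS and BM lines went from 2763 higher and 1692 lower to 2005 and 2243 (quantile) or 2144 and 2209 (median-of-ratios), and those between FL and BM lines from 1996 and 1251 to 1448 and 1545 or 1511 and 1586. Relative to that median, the YS lines stood 0.95 above BM lines for Max, 0.90 for Mxd1, 0.74 for Mga and 0.52 for Myc, and -0.88 for Mxd3. Max and Mxd1 were therefore under 2-fold with either scaling, while their limma adjusted p stayed between 0.00905 and 0.026. The directions of Max, Mxd1, Mga and Mxd3 were the same in all 20 alternatives. The signs of Mxd4, Mnt and Mlx, which did not pass, were not. For Max, Mxd1, Mga and Mxd3, YS and BM lines did not overlap, so only the other scalings could have reversed the direction. The remaining alternatives could not.

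Some chromosomes differed as a whole between the groups, and against BM lines chromosome 19, which holds Mxi1, differed most. The 404 genes tested on chromosome 19, where Mxi1 lies, had medians of 0.53, 0.42 and 0.54 across BM lines 1 to 3 (log2, relative to each gene's mean over the 9 libraries and to the median of the library), of -0.37, -0.35 and -0.31 across FL lines 1 to 3 and of -0.11, -0.17 and -0.17 across YS lines 1 to 3. Relative to the median of all genes, chromosome 19 differed by -0.88 between FL and BM lines and by -0.62 between YS and BM lines, while Mxi1 differed by -0.09 and -0.50. For the chromosomes of the members that passed, the medians between YS and BM lines, again relative to all genes, were 0.03 (chromosome 12, Max), 0.07 (chromosome 6, Mxd1), -0.17 (chromosome 2, Mga) and -0.21 (chromosome 13, Mxd3). Each was smaller in size than the difference of the member on it. Chromosome 15, where Myc lies, stood at 0.19, 0.09 and 0.00 across YS lines 1 to 3, in the same order as Myc. The part of the chromosomes in the members' values was not tested.

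Because MYC and its antagonists draw on 1 pool of MAX, their transcripts can be set side by side within a library, as TPM is per length. Summed over the partners of MAX (Myc, Mycn, Mga, Mnt, Mxi1, Mxd1, Mxd3 and Mxd4), the level was 310.3, 201 and 145.6 TPM across YS lines 1 to 3, 175 to 196 TPM in FL lines and 165 to 176 TPM in BM lines. Myc made up 59.0%, 47.6% and 35.6% of this sum across YS lines 1 to 3, 42.1%, 28.5% and 33.6% across FL lines 1 to 3, and 33.4%, 36.8% and 39.9% across BM lines 1 to 3. Only in YS line 1 did Myc exceed the other partners together, at 1.44 times their sum, and the other libraries ranged from 0.398 to 0.910. Those other partners summed to 93.8 to 127 TPM over the 9 libraries, a narrower range than that of Myc.

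Max was below the sum of its partners in every library except YS line 3, where it was 1.304 times that sum. In the other 8 libraries it was 0.370 to 0.747 times the sum. Against Myc alone, Max was at 0.764, 1.25 and 3.66 times its level across YS lines 1 to 3, at 1.56, 1.89 and 2.23 times across FL lines 1 to 3, and at 1.24, 1.23 and 0.926 times across BM lines 1 to 3. YS lines 1 and 3 thus held opposite ends of this ratio. These are ratios of transcripts, and the proteins were not measured here.

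**Figure D3:**
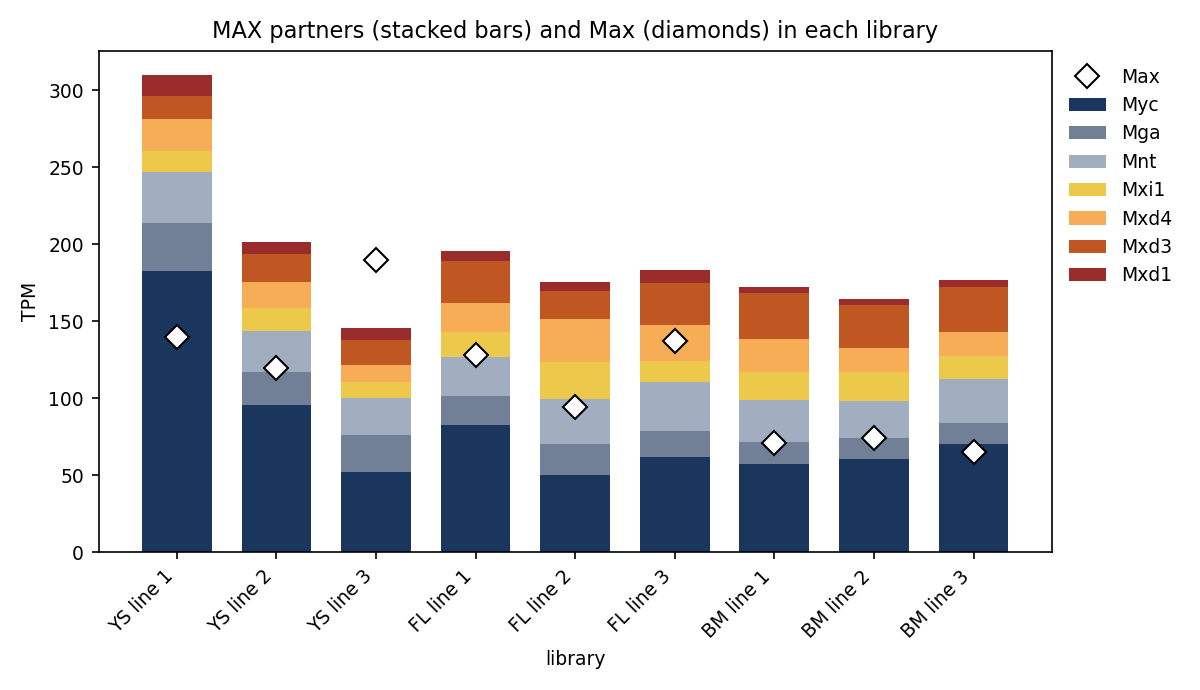
TPM of the partners of MAX in each library, stacked by gene, with the TPM of Max as white diamonds. The Myc segment is tallest in YS line 1 (183 TPM), and only in YS line 3 does Max lie above the whole stack.

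The genes whose level followed a member most closely over the 9 libraries were Kctd3, Kars and Snx25 for Myc (Pearson r of log2 levels 0.978, 0.969 and 0.967), Ubl7, Uvrag and Exosc10 for Max (0.985, 0.980 and 0.979), and Padi2, Sec24c and Eno3 for Mxd1 (0.988, 0.976 and 0.975). They are the highest among 11753 genes over only 9 libraries, which fall into 3 groups, and are a description. Kars, which encodes the lysyl-tRNA synthetase, was highest in YS line 1 (189.8 TPM) and lowest in BM line 1 (90.6 TPM). Exosc10, a catalytic subunit of the RNA exosome, was highest in YS line 3 (127 TPM), as Max was, and at 54.9 to 57.1 TPM in BM lines.

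Known targets that MYC activates were, in part, higher in YS lines than in both other groups. Of 39 tested genes of ribosome assembly, nucleotide and polyamine synthesis and related functions, 16 were higher and 1 was lower in YS than in BM lines at the false discovery rate alone (43.6% in all, against 37.9% of all genes), with a median difference of 0.47 against 0.11 for all genes. Between YS and FL lines, 14 were higher and 0 were lower (35.9%, against 12.8%), with a median of 0.45 against 0.02. Between FL and BM lines, 3 were higher and 3 lower (15.4%, against 27.6%), with a median of -0.02 against 0.09. With the 2-fold threshold, limma called 0 of the 39 in either comparison of YS lines, against 12.8% and 3.79% of all genes. An unadjusted limma p under 0.05 was reached by 21 and 20, against 4842 and 3016 of all 11753 genes. Without YS line 1, the counts at the false discovery rate alone were 14 and 1 against BM lines and 10 and 0 against FL lines, with medians of 0.29 and 0.30. Without BM line 2 they were 11 and 0, and 5 and 0. The differences between YS and FL lines were the same in that fit, and only their test changed. Over all genes the counts without BM line 2 fell as well, from 2763 and 1692 to 2011 and 1297 against BM lines and from 729 and 771 to 310 and 384 against FL lines. Those of all genes without YS line 1 were 2679 and 1784 against BM lines and 613 and 781 against FL lines. Without YS line 3, 26 targets were higher and 1 was lower than in BM lines, against 2949 and 1782 of all genes. Then 2 were called at 2-fold in each comparison of YS lines (Npm1 and Srm against BM lines, Apex1 and Dkc1 against FL lines). Of all genes, 908 were called higher and 658 lower against BM lines, and 282 and 269 against FL lines. Without BM line 2, 0 targets were higher and 3 lower in FL than in BM lines, against 1388 and 958 of all genes. With either other scaling, 14 were higher and 2 or 3 lower in YS than in BM lines, and 1 or 2 were higher and 5 lower in FL than in BM lines. YS line 1 was the highest of the 9 libraries for 30 of the 39 targets (76.9%, against 27.3% of all genes tested).

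The targets with the smallest adjusted p differed in how the groups were ordered. Npm1, which encodes the nucleolar chaperone nucleophosmin, was at 1217, 801 and 761 TPM across YS lines 1 to 3, at 476 to 553 TPM in FL lines and at 482 to 492 TPM in BM lines. Every YS line was above every other library (YS minus BM 0.90, SE 0.172, limma adjusted p = 0.00807, and YS minus FL 0.81, limma adjusted p = 0.0429). Fbl, the rRNA methyltransferase fibrillarin, was 0.68 higher in YS than in BM lines (limma adjusted p = 0.00791). Ldha, which makes lactate, was instead lowest in FL lines, at 796 to 977 TPM, against 1789 to 1986 TPM in BM lines and 1148 to 1831 TPM in YS lines (FL minus BM -1.09, limma adjusted p = 0.00379). Odc1, the first enzyme of polyamine synthesis, was also lower in FL than in BM lines (-1.19, limma adjusted p = 0.00413) and was the target lower in YS than in BM lines (-0.55, limma adjusted p = 0.0624). Ldha and Odc1 were, as Npm1 and Fbl (0.45, limma adjusted p = 0.0778) were, higher in YS than in FL lines (0.74, limma adjusted p = 0.0508, and 0.63, limma adjusted p = 0.0899). The difference of Odc1 between YS and BM lines ended without YS line 1 (-0.44, limma adjusted p = 0.146) and without BM line 2 (-0.45, limma adjusted p = 0.181). Npm1 and Ldha have near-identical processed copies in the genome that can share reads, so their levels are less certain.

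**Figure D4:**
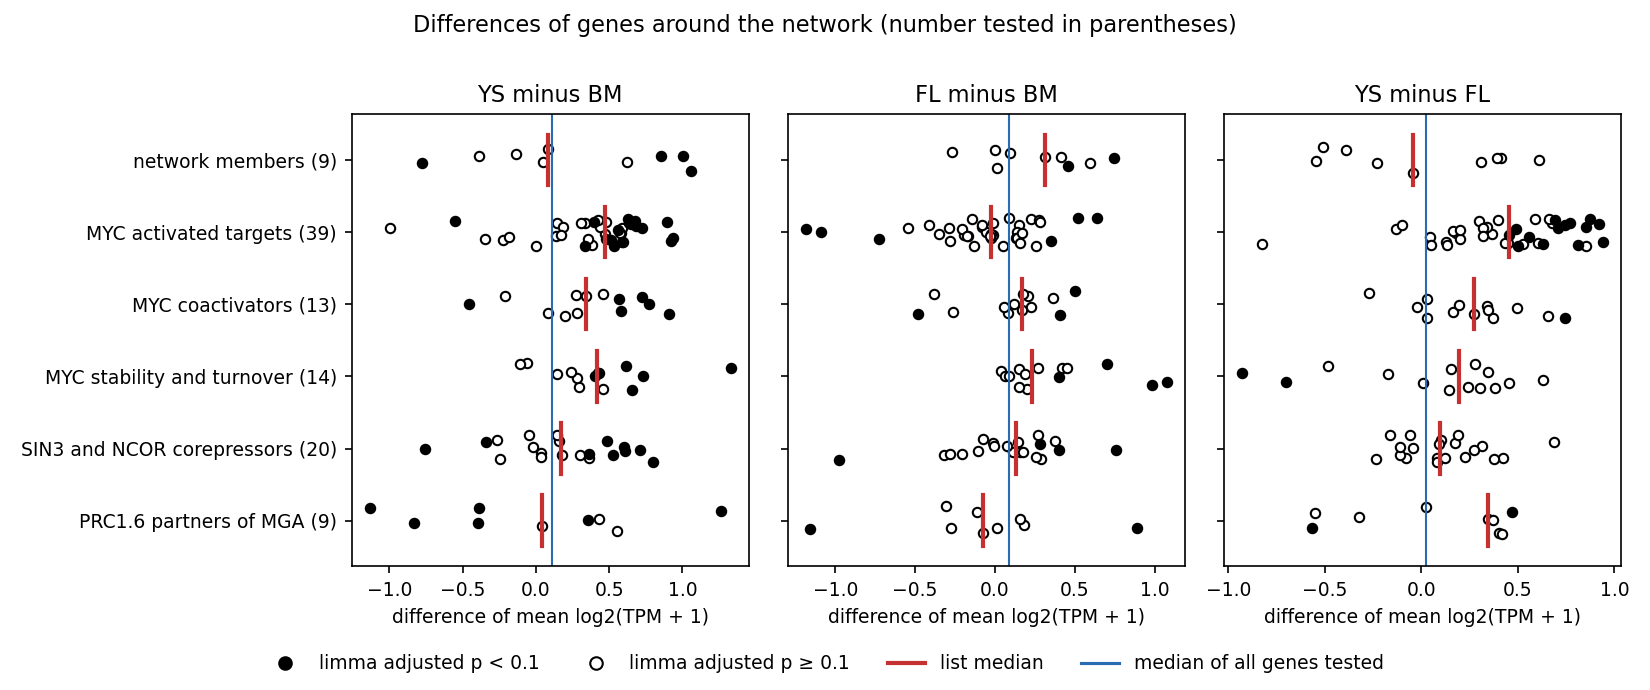
Difference of mean log2(TPM + 1) of each tested gene of the network and of 5 lists around it, for the 3 comparisons. Filled circles passed a limma adjusted p of 0.1, red bars are list medians and the blue line is the median of all genes tested. The 39 MYC targets lie mostly to the right in both comparisons of YS lines (medians 0.47 and 0.45) and around 0 between FL and BM lines.

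Genes that MYC is known to repress were few, and 4 of them were tested. Cdkn1a, which encodes the cell cycle inhibitor p21, was at 24.0, 81.4 and 83.5 TPM across YS lines 1 to 3 and at 69.7, 466 and 387.5 TPM across FL lines 1 to 3, whereas it was listed at 0 in BM lines 1 and 3, with 11.5 TPM in BM line 2. It was called higher in YS lines (limma adjusted p = 0.0174) and in FL lines (limma adjusted p = 0.00436) than in BM lines, also without BM line 2. Gadd45a, a stress gene of growth arrest, was at 0.93, 13.6 and 6.67 TPM across YS lines 1 to 3 and at 20.1 to 27.6 TPM in BM lines, and it was called lower in YS lines (-2.04, SE 0.610, limma adjusted p = 0.0386, and without YS line 1 -1.22, limma adjusted p = 0.0203). Ndrg1 was called higher in FL than in BM lines (1.06, limma adjusted p = 0.0164), and fell under 2-fold with either other scaling (0.95 and 0.98). Cdkn2b, the inhibitor p15, was at 5.48 to 17.5 TPM and did not pass in any comparison.

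Of the 2 tested targets of MondoA and MLX, which restrain glucose uptake, only Arrdc4 differed. It was at 17.4, 13.6 and 8.58 TPM across YS lines 1 to 3, at 9.16 to 12.3 TPM in FL lines and at 27.9 to 31.6 TPM in BM lines, and was lower than in BM lines in both YS lines (-1.15, SE 0.230, limma adjusted p = 0.00926) and FL lines (-1.36, limma adjusted p = 0.00483). Without YS line 3 the first was -0.89, under 2-fold. Txnip was at 273 to 358 TPM and its differences were between -0.05 and -0.01 (SE 0.138).

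The factors that MYC recruits were described as a list of 13 tested coactivators, of which 5 were higher and 1 was lower in YS than in BM lines at the false discovery rate alone (46.2%, against 37.9% of all genes, with a median difference of 0.35 against 0.11). Kat2a, the acetyltransferase GCN5, was at 82.7, 71.8 and 63.75 TPM across YS lines 1 to 3 and at 39.8 to 44.5 TPM in BM lines (0.77, SE 0.149, limma adjusted p = 0.00832). Ruvbl2 (0.91, limma adjusted p = 0.0103), a helicase of the TIP60 and INO80 complexes, and Trrap (0.58, limma adjusted p = 0.0143), the scaffold that MYC binds, were higher too, as were Ruvbl1 (0.72) and Dmap1 (0.57, limma adjusted p = 0.012). Kat5, the acetyltransferase of the TIP60 complex, was lower (-0.45). Between FL and BM lines 2 were higher (Kat2a and Dmap1) and 1 was lower (Kat5; 23.1%, against 27.6%), and between YS and FL lines 1 was higher (Ruvbl2, 0.74, limma adjusted p = 0.0606; 7.69%, against 12.8%). With either other scaling, 5 were higher and 2 lower in YS, and 1 higher and 2 lower in FL, than in BM lines. With all 9 libraries none of the 13 was called at 2-fold, and without YS line 3 Ruvbl2 was (1.03, limma adjusted p = 0.0119).

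Of 20 tested genes of the SIN3 and NCOR corepressors, which the MXD proteins and MNT recruit, 7 were higher and 2 lower in YS than in BM lines (45%, against 37.9% of all genes), with a median difference of 0.17 against 0.11. Sin3a, the scaffold that binds the MXD proteins, was at 58.2, 42.3 and 67.25 TPM across YS lines 1 to 3, at 46.8, 39.3 and 36.55 TPM across FL lines 1 to 3, and at 29.5 to 32.0 TPM in BM lines. YS and FL lines lay above all BM lines, and the difference passed for YS lines (0.80, SE 0.174, limma adjusted p = 0.0123) but not for FL lines (0.38, limma adjusted p = 0.164). Hdac1, a deacetylase of the SIN3 complex, was higher in YS than in BM lines as well (0.60). Brms1, a SIN3-associated subunit, was lower in both YS (-0.75, limma adjusted p = 0.00549) and FL lines (-0.98, limma adjusted p = 0.00192). Between FL and BM lines 3 genes were higher and 1 was lower (20%, against 27.6%). With the other scalings, 5 or 6 were higher and 3 lower in YS, and 2 higher and 2 lower in FL, than in BM lines. Between YS and FL lines limma passed 0 of the 20, against 12.8% of all genes. An unadjusted limma p under 0.05 was reached by 3, against 3016 of all 11753 genes.

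The PRC1.6 partners of MGA differed in both directions. Of 9 tested, 2 were higher and 4 lower in YS than in BM lines (66.7%, against 37.9% of all genes), with a median difference of 0.04 against 0.11. With the other scalings 1 was higher and 4 lower, with medians of -0.10 and -0.07. Without BM line 2, 1 was higher and 2 lower, against 2011 and 1297 of all genes. Rybp, a core subunit of PRC1, was at 27.5, 27.9 and 42.3 TPM across YS lines 1 to 3, at 28.7, 23.7 and 21.4 TPM across FL lines 1 to 3, and at 11.9 to 13.5 TPM in BM lines, and was called higher in YS lines (1.26, SE 0.186, limma adjusted p = 0.00327). Pcgf6, the subunit that defines PRC1.6, was at 4.82, 6.69 and 5.02 TPM across YS lines 1 to 3, at 4.77 to 5.97 TPM in FL lines and at 12.1 to 14.1 TPM in BM lines. It was called lower in YS (-1.14, limma adjusted p = 0.00302) and in FL lines (-1.16, limma adjusted p = 0.00249). Pcgf6 lies on chromosome 19, whose median was lower in YS and FL lines as given above. Ring1 (-0.83, limma adjusted p = 0.0123) and Yaf2 (-0.40, limma adjusted p = 0.0392), an alternative to RYBP in the complex, were lower in YS than in BM lines. In each of the other 2 comparisons, 1 gene was higher and 1 was lower (22.2%, against 27.6% of all genes for FL minus BM and 12.8% for YS minus FL). Between YS and FL lines, 4 of the 9 had an unadjusted limma p under 0.05, against 3016 of all 11753 genes. Without BM line 2, limma passed 0 of the 9 there with the differences unchanged, while 310 of all genes were higher and 384 lower.

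Genes that set the stability of the MYC protein were given by 14 tested members. In YS against BM lines, 6 were higher and 0 lower (42.9%, against 37.9% of all genes, with a median difference of 0.41 against 0.11), and with quantile normalization 4 were higher and 1 was lower. Skp2, an F-box protein that ubiquitinates MYC, was at 71.6, 45.9 and 33.8 TPM across YS lines 1 to 3, at 34.2, 26.99 and 31.4 TPM across FL lines 1 to 3, and at 17.5 to 19.2 TPM in BM lines. It was called higher in YS lines (1.33, SE 0.239, limma adjusted p = 0.00639), and Usp28, a deubiquitinase that stabilizes MYC, was 0.73 higher (limma adjusted p = 0.0166). In FL against BM lines, 4 were higher and 0 lower (28.6%, against 27.6%). Without BM line 2, 2 were higher and 0 lower, against 1388 and 958 of all genes. The 4 included Bin1, an adaptor known to bind and inhibit MYC (1.08, SE 0.170, limma adjusted p = 0.00374), and Gsk3b, the kinase that marks MYC for degradation (0.98, limma adjusted p = 0.00594). Both were lower in YS than in FL lines (-0.93, limma adjusted p = 0.0284, and -0.70, limma adjusted p = 0.0575), the 2 genes of the list that passed there (14.3%, against 12.8%). Without BM line 2, Gsk3b no longer passed between YS and FL lines (limma adjusted p = 0.101), with its difference unchanged. With median-of-ratios scaling Bin1 fell under 2-fold against BM lines (0.98).

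The Maf and Klf factors that are known to govern macrophage self-renewal differed by gene and by line. Maf was at 286, 205 and 188 TPM across YS lines 1 to 3, at 283, 407 and 241 TPM across FL lines 1 to 3, and at 22.99, 51.4 and 17.4 TPM across BM lines 1 to 3. It was called higher than in BM lines in YS (2.97, SE 0.374, limma adjusted p = 0.00201) and in FL lines (3.41, limma adjusted p = 0.000987), also without BM line 2 (3.41 and 3.85). Klf4 was at 2.67, 12.5 and 11.9 TPM across YS lines 1 to 3, at 20.5, 23.3 and 27.5 TPM across FL lines 1 to 3, and at 18.4, 16.2 and 19.6 TPM across BM lines 1 to 3.

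All 3 YS lines had less Klf4 than every other library. It was called lower in YS lines than in BM (-1.14, SE 0.443, limma adjusted p = 0.0865) and FL lines (-1.51, limma adjusted p = 0.0827). Without YS line 1, where it was lowest, these were -0.52 (limma adjusted p = 0.0367) and -0.90 (limma adjusted p = 0.0299), under 2-fold, and without BM line 2 neither passed (limma adjusted p = 0.143 and 0.126). The difference from FL lines does not involve BM line 2, so it stayed the same and only its test changed. Klf2 was at 5.76, 34.4 and 35.4 TPM across YS lines 1 to 3 and at 62.6 to 88.2 TPM in FL lines, and was called lower in YS than in FL lines (-1.86, SE 0.576, limma adjusted p = 0.0937). It was -1.05 without YS line 1 (limma adjusted p = 0.0435) and did not pass without BM line 2 (limma adjusted p = 0.143). The difference of -1.86 was the same without BM line 2, and only its test changed. BM lines overlapped YS lines for Klf2, at 28.8 to 44.4 TPM.

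**Figure D5:**
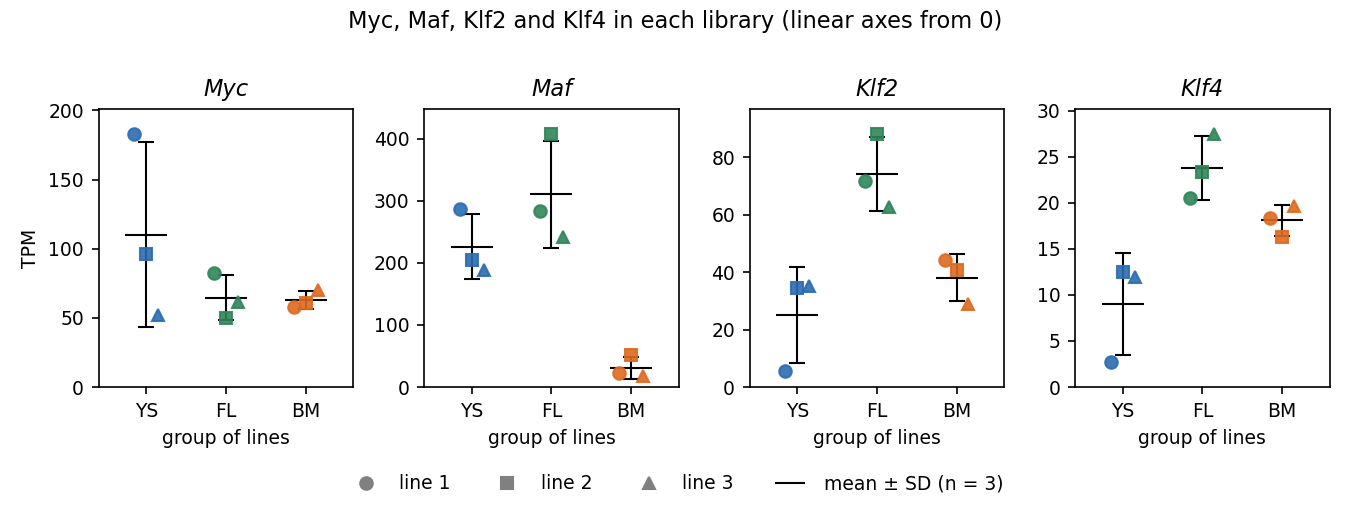
TPM (linear axes from 0) of Myc, Maf, Klf2 and Klf4 in each library, by group of lines. Symbols are lines 1 to 3 and black bars the mean ± SD over 3 lines. YS line 1 (blue circle) is highest for Myc and lowest for Klf2 and Klf4, and BM lines are lowest for Maf.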

How the data were processed

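Poly(A)-selected, strand-specific libraries of 3 YS, 3 FL and 3 BM lines were read by the authors from 1 end over 75 nt. They deposited 1 table of TPM for the 9 libraries, given to 2 decimals, with no counts. The submitters' processing notes name Trim Galore 0.6.6, STAR 2.7.9a and RSEM 1.3.3. The genome build and annotation behind the table are not given in the sources used here. TPM keeps no depth, so no counting error or floor is given, a 0 is reported as listed at 0, and the spread among 3 lines is the only measure of precision. The authors' own test was run on raw counts, which were not used here.

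The test was run on genes that reached 1 TPM in 3 or more libraries, with limma 3.58.1 (R 4.3.3) on log2(TPM + 1), 1 mean per group, all 9 libraries in the fit and an intensity trend. The 3 groups share 1 estimate of the spread, so in that fit a gene has the same standard error in all 3 comparisons. Leaving out a line of the group not compared therefore changes the adjusted p of a comparison but not its difference. Adjusted p-values are Benjamini-Hochberg values over all 11753 genes tested. Calls needed a false discovery rate below 0.1 together with a change of over 2-fold. A fold change on the log2(TPM + 1) scale understates the change of low genes. The script was tested on simulated data. Single members were also compared by exact two-sided permutation tests.

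The members, and the lists of genes around them, were chosen with earlier results of these data known. All members are named, and of each list at most 4 genes with the smallest adjusted p over the 3 comparisons, with the genes of the short lists. Some genes of the lists are not reported here by name. Ruvbl1, Kat5, Srm, Apex1, Dkc1, Pecam1, Hba-a1, Elane and Cd3e fall outside the rule for naming genes and were named after their values were seen. Promoter windows and chromosomes came from RefSeq tables of GRCm38.p6, in which 11160 of the 11753 tested symbols were matched to a chromosome. Alternatives were other pseudocounts (0.1 and 4), filters, scalings, thresholds, a fit of 2 groups, the replicate block and leaving out each line. After the data were seen, the lists were also refitted with both other scalings and without YS line 1, YS line 3 or BM line 2. Line numbers showed no sign of pairing. The deviations of same-numbered lines of different groups had r of -0.118 to 0.088, against -0.138 to 0.118 for lines of different numbers. With 3 lines per group, this check could miss a pairing.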

Additional observations from a re-analysis of the deposited data

How the results depend on the processing

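Of the members called between YS and BM lines (2, Max and Mxd1), 1 remained with a pseudocount of 4 (Max), 0 with quantile normalization and 0 with median-of-ratios scaling, while 4 passed with no fold threshold. The count was 1 to 2 when 1 line was left out: 1 without YS line 1 or without BM line 1 (Max), and 2 without YS line 3, where Myc took the place of Max (0.87). Mxd1 was at 0.72 with a pseudocount of 4. Between FL and BM lines the count of 0 became 2 with no fold threshold and stayed 0 without any 1 line, and between YS and FL lines it was 0 to 1 (Myc, without YS line 3). With the replicate block, 2 members were called between YS and BM lines and 0 in the other comparisons, so the block changed no call. The numbers mark no pairing in the labels. Other pseudocounts, filters, thresholds, the fit of 2 groups and the fit with no intensity trend left these counts as they were. No member that passed changed sign under any alternative. For those that passed in the main fit, only the other scalings could have changed the sign, as the lines compared did not overlap. The causes of these changes were not tested. With 3 lines per group and no depth in the table, the members that did not pass cannot be said to be equal, and the standard errors of 0.145 to 0.393 give the precision.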
